A study of Mus musculus with 8 samples.

Results

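The mRNAs of 10 genes of the ETS family of transcription factors, Erf, Etv3, Etv6, Etv4, Etv5, Ets1, Ets2, Elk1, Elk3 and Elf3, were followed in mouse hepatocytes treated with irisin. Every probe that is not a control spot and whose transcript accession belongs to 1 of these genes was taken, which gave 14 of the 39429 probes on the array and 10 of the 21612 genes that the array names. Ets1 and Elk1 had 2 probes each, Elk3 had 3 and the other genes had 1. The cells were AML12, a hepatocyte line from the liver of a mouse that carried a human TGF-α transgene, and both groups grew in DMEM/F-12 medium with fetal bovine serum. The 4 control samples had no irisin, and the 4 irisin samples had 0.5 µg/ml irisin, a peptide cleaved from Fndc5, for 24 h. Both groups came from this 1 cell line, and the labels do not say that replicates were separate cultures, so that p-values measure the spread between these samples, which may be technical. The question taken from the study was whether genes around Erf differed between the groups. Its pathway analysis lists Erf as a regulator predicted to be inhibited with irisin. The arrays measure mRNA and not the activity of a factor.

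Each probe is given as a log2 signal scaled to the 75th percentile of the array it was read on. That percentile itself stood at 473 ± 69.4 without irisin and at 784 ± 71.4 with it (SD, n = 4 in each group), in units of processed intensity. Each group filled its own slide, scanned once, so that treatment cannot be told apart from slide or scan. All 9 hepatocyte markers examined, among them Alb, Ttr and Hnf4a, stood well above background on each of the 8 arrays. Of these, Tat, an enzyme of tyrosine breakdown, fell (-0.77, adjusted p = 0.000408 in limma), and Krt18 was at -0.47 (adjusted p = 0.00509 in limma). Before scaling, the mean signal of Tat, a dim probe, was 31.0 in controls and 30.1 with irisin. That of Krt18 was 89545 in controls and 107810 with irisin. Of the markers of other cell types, Krt7, Krt19 and Sox9 (bile duct), Pecam1 and Kdr (endothelium), Cd68 and Csf1r (macrophages) and Col1a1 (stellate cells) were also detected on all 8 arrays, while Cdh5, Tek, Des, Lrat and Pdgfrb were so on none. On the linear scale before scaling, the summed signal of the 4 endothelial markers went from 280 to 414 in controls and from 325 to 463 with irisin. That of the 9 hepatocyte markers went from 140835 to 186568 in controls and from 226956 to 248259 with irisin. Fewer cells of a type and less RNA per cell cannot be told apart in such bulk samples.

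ETS factors share a DNA-binding domain, the ETS domain, that reads a GGAA core, and many of them are end points of the RAS-ERK kinase cascade. Erf and Etv3 are closely related repressors, and phosphorylation by ERK sends Erf out of the nucleus, which lifts its repression. Etv4 and Etv5 (the PEA3 group), Ets1 and Ets2, and the ternary complex factors Elk1 and Elk3 are activated or changed in activity by the same kinases, so that the same signal acts on activators and on repressors. In liver the family is known for its part in growth factor responses, proliferation and matrix remodeling.

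The promoters of these genes show how differently the core of the family's own site is spread among them. Windows of 300 bases, from 250 before to 50 after the start of the gene, were taken from RefSeq for mouse (GRCm38.p6) and were given for 8 of the 10 genes, with a second start for Etv5. Etv4 and Ets1 were not matched. The windows of Erf, Etv3 and Elk1 are printed. In the measurements that follow, these 3 genes differed between the groups on their only or brightest probe, Erf and its sister gene Etv3 in opposite directions. Elk3 differed on its dimmest probe alone, and its window is not printed. Each is written 5′ to 3′ along the strand of the gene, and capitals mark GGAA or TTCC, its reverse complement.

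Erf (chr7:25250709-25251008, minus strand): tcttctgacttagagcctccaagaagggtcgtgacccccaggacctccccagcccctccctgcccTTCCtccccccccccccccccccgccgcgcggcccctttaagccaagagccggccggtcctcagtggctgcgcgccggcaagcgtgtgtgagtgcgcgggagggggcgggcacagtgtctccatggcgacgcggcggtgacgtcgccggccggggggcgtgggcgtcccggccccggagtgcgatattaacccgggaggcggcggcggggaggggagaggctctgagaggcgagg

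Etv3 (chr3:87525328-87525627, plus strand): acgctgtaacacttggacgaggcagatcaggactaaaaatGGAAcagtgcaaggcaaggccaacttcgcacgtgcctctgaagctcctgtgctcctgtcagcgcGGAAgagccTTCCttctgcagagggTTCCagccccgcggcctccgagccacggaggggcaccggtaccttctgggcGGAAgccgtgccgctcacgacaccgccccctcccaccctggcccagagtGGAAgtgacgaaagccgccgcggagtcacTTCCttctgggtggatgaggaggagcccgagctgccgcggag

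Elk1 (chrX:20950559-20950858, minus strand): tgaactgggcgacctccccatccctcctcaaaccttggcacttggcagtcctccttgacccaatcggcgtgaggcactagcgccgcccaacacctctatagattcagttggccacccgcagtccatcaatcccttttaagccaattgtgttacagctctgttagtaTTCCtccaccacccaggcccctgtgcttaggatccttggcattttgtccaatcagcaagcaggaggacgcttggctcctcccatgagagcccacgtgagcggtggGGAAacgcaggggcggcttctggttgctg

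On both strands together, GGAA occurred 1 time in the Erf window, 2 times in the Elk1 window and 7 times in the Etv3 window. It occurred 6 times at Etv6, 4 times at Elf3, 2 times at Elk3 and 1 time at Ets2, while of the 2 starts of Etv5 one window held 6 matches and the other held 0. Over all 32851 windows of this length from the same source, 96.0% held GGAA, with a median of 3 matches and quartiles of 2 and 5. The counts at Etv3, Etv6 and one start of Etv5 lay above the upper quartile. Those at Erf, Ets2 and the other start of Etv5 lay below the lower one. Of these genes, Etv5, Etv6 and Ets2 overlapped between the groups in the measurements that follow, and a link of counts to changes was not tested. The longer high-affinity motif CCGGAAGT, which contains GGAA, was found on either strand in 0 of the 9 windows and in 3.89% of all windows. The Erf window was 74.0% G or C, the Etv3 window 64.3% and the Elk1 window 57.3%. These matches describe letters only, and no binding was measured.

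With irisin, 1 of the 14 ETS probes rose and 0 fell at the thresholds of the study, a change of at least 1.5-fold and an adjusted p under 0.05 (limma, Benjamini-Hochberg over all tested probes). The probe that rose was one of the 2 probes of Ets1. Among all 24091 tested probes, 0.714% rose and 11.6% fell by this rule, against 1 increase and 0 decreases in 14 ETS probes, which are small counts to set beside these shares. The 14 probes were each well above background on every array, so that each entered the test without help from either group. By the adjusted p alone, 2 probes were higher (Ets1 and Etv3) and 3 were lower (Erf, Elk1 and Elk3), against 2.99% higher and 21.5% lower of all tested probes. The same 5 probes were those whose groups did not overlap, and all 4 irisin arrays lay above all 4 control arrays for 4.22% and below them for 23% of all tested probes. In total 5 of the 14 probes had a higher and 9 a lower mean with irisin, and over all tested probes the median change was -0.079 on the log2 scale.

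**Figure D1:**
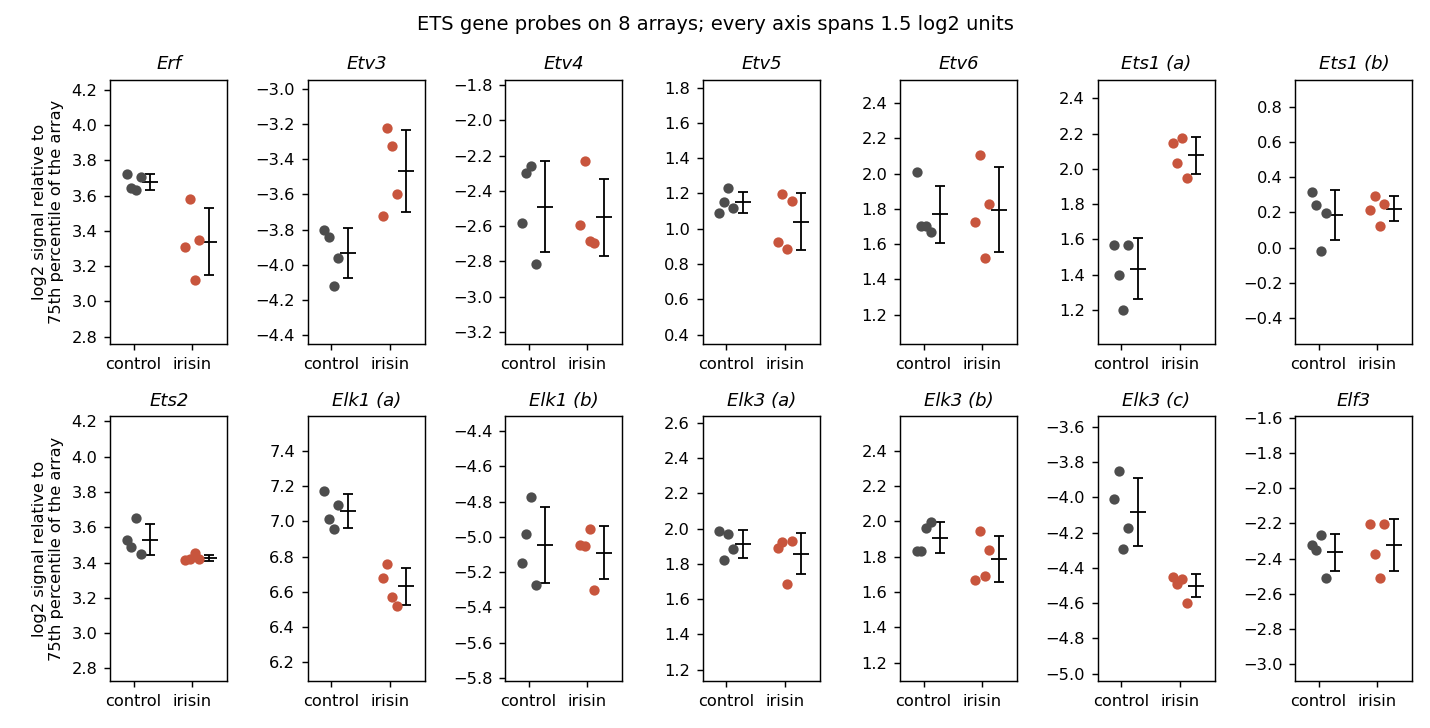
Log2 signal, scaled to the 75th percentile of each array, for each of the 14 probes of the ETS genes, with 1 point for each array (4 control, 4 irisin) and the mean with its SD beside them. Letters tell apart the probes of 1 gene in the order in which the text describes them, and every axis spans the same range, but no level is comparable between probes. The groups are separate for Erf, Etv3, Ets1 (a), Elk1 (a) and Elk3 (c), and they overlap for the other 9 probes.

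With the arrays scaled to the 75th percentile, Erf, the repressor that ERK inactivates, was lower on every irisin array than on every control array, a direction that turned with spike-in scaling or no scaling (0.24 and 0.40). Its log2 signal on this scale was 3.72, 3.64, 3.63 and 3.71 on the control arrays and 3.31, 3.58, 3.12 and 3.35 on the irisin arrays. The control values were close to each other, while the irisin values were spread out, with replicate 2 only just under the lowest control. The mean went from 3.68 ± 0.0458 to 3.34 ± 0.191 (SD, n = 4 in each group), a log2 change of -0.34 with a standard error of 0.10 and a 95% interval from -0.56 to -0.11. The adjusted p was 0.0343 in limma, and the control mean was 1.26 times the irisin mean, which is under the 1.5-fold threshold. An exact two-sided permutation test gave p = 0.0286, the smallest that 4 arrays against 4 allow. Probes of similar brightness, the ninth of 10 groups ordered by signal (deciles), had a median change of -0.054, and 5177 of the 24091 tested probes changed further downward than Erf. The adjusted p of Erf in limma was 0.00478 without irisin replicate 2, whereas it lay above the threshold, between 0.0589 and 0.0916, when any other single array was left out.

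Etv3, the repressor most like Erf, went the other way with this scaling and was higher on every irisin array. Its log2 signal was -3.80, -3.84, -4.12 and -3.96 on the control arrays and -3.72, -3.23, -3.33 and -3.60 on the irisin arrays. The closest pair were irisin replicate 1 and control replicate 1, which differed by less than the range of either group. The mean went from -3.93 ± 0.141 to -3.47 ± 0.232 (SD, n = 4 in each group), a log2 change of 0.46 with a standard error of 0.12 and a 95% interval from 0.19 to 0.74. The adjusted p was 0.0198 in limma, and the difference of 1.38-fold did not reach 1.5-fold. The probe was dim, in the third signal decile, where the median change was -0.15, and only 482 of the tested probes changed further upward. Without control replicate 3 the adjusted p was 0.0587, without control replicate 4 it was 0.0511 and without irisin replicate 3 it was 0.0608. The difference depended on the background correction, since it was -0.0012 with normexp, a model-based correction of the raw spot signal, followed by the same scaling. It was 0.35 with normexp followed by quantile normalization, and 0.63 and 0.65 with quantile normalization and cyclic loess of the deposited signal, where it passed both thresholds.

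Because each array carries both probes, the ratio of Etv3 to Erf can be formed on each array without any scaling between arrays. Relative to its control mean, the log2 ratio went from -0.14 to 0.12 in controls and from 0.58 to 1.16 with irisin. The ratio was thus higher by 0.80 on average, with no overlap, and this stayed between 0.68 and 0.87 with single arrays left out. It shrank to 0.24 with normexp and the 75th percentile. A ratio within an array shows that the signals of the 2 probes changed unequally, and it does not show which of them moved. Nor does it show that the 2 mRNAs did, since the 2 probes of Ets1 also changed unequally, by 0.61. The Etv3 probe was dim and the Erf probe bright, and the median change at their brightness was -0.15 and -0.054.

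The third repressor, Etv6, which recruits corepressors and is a frequent partner in leukemia gene fusions, showed no such difference on the percentile scale. Its log2 signal was 2.01, 1.70, 1.70 and 1.67 on the control arrays and 1.73, 2.11, 1.52 and 1.83 on the irisin arrays, so that the irisin values lay on both sides of the controls. The log2 change was 0.027 with a 95% interval from -0.26 to 0.32 (adjusted p = 0.917 in limma), so that a change of 1.5-fold lay outside the interval.

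**Figure D2:**
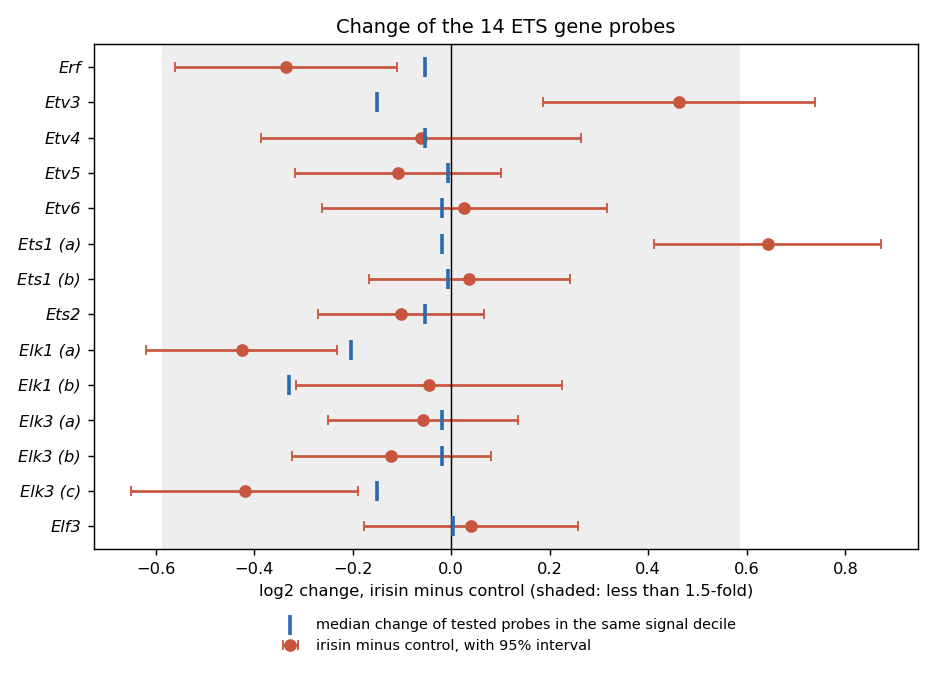
Log2 change (irisin minus control, horizontal axis) of each of the 14 probes with its 95% interval from limma (n = 4 in each group), and the median change of the tested probes in the same signal decile as a blue mark. Ets1 (a) at 0.64 lies beyond the shaded zone of less than 1.5-fold, and the intervals of Erf, Elk1 (a) and Elk3 (c) on the low side and of Etv3 on the high side exclude 0, with the sign of the 3 lower probes turning with spike-in scaling or no scaling.

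Ets1, an activator whose N-terminal part is phosphorylated by ERK and which is known for its role in endothelial, lymphoid and invasive cells, held the one increase past both thresholds. On its brighter probe, A_52_P194250, the log2 signal was 1.57, 1.40, 1.20 and 1.57 on the control arrays and 2.15, 2.03, 2.18 and 1.95 on the irisin arrays. The highest control lay well under the lowest irisin array. The mean rose from 1.43 ± 0.175 to 2.08 ± 0.105 (SD, n = 4 in each group), a log2 change of 0.64 with a standard error of 0.10 and a 95% interval from 0.41 to 0.87. This is 1.56-fold, with an adjusted p of 0.00116 in limma, and 179 of the 24091 tested probes changed further upward. In its signal decile, the eighth, 0.249% of the probes rose at both thresholds and the median change was -0.018. Without control replicate 3, which had the lowest value, the change was 0.56 and did not reach 1.5-fold, and with every other array left out it stayed between 0.61 and 0.69 and passed. It also passed with each other scaling, background correction, filter and test that was run on single probes, with changes between 0.63 and 1.38. Ets1 is also expressed in endothelial cells, and of the 4 endothelial markers Pecam1 fell (-0.61), Kdr was at -0.56 and Cdh5 and Tek were well above background on 0 of the 8 arrays. Before scaling, the mean signal of Pecam1, a dim probe, was 21.6 in controls and 23.5 with irisin, and that of Kdr was 331 and 375. Whether the Ets1 signal has to do with cell type was not tested.

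The other probe of Ets1, A_52_P232830, did not show the increase on the percentile scale. It read 0.32, 0.24, -0.017 and 0.20 on the control arrays and 0.22, 0.29, 0.12 and 0.25 on the irisin arrays. The groups overlapped, with a log2 change of 0.037 and a 95% interval from -0.17 to 0.24 (adjusted p = 0.83 in limma). The ratio of the 2 Ets1 probes on each array, relative to its control mean, lay between -0.091 and 0.12 with no irisin and between 0.45 and 0.80 with irisin, a mean difference of 0.61. Both probes carry the same transcript accession, and the files used here do not show which exons or transcript ends each of them reads. With the 2 probes averaged, Ets1 changed by 0.34 (adjusted p = 0.0184 in limma), which is under 1.5-fold.

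Ets2, the close relative of Ets1 and also a target of ERK phosphorylation, had 3.53, 3.49, 3.65 and 3.45 on the control arrays and 3.41, 3.42, 3.45 and 3.42 on the irisin arrays. The irisin values were close to each other and at the lower edge of the controls. The log2 change was -0.10 with a 95% interval from -0.27 to 0.065 (adjusted p = 0.391 in limma), and an exact two-sided permutation test gave p = 0.0571. The ratio of Ets1, on its brighter probe, to Ets2 was higher by 0.75 with irisin, between 0.62 and 0.83 on the irisin arrays and between -0.35 and 0.22 on the control arrays. Over the alternatives run, this difference lay between 0.63 and 0.83. The dimmer Ets1 probe changed by only 0.037, and its ratio to Ets2 was not formed. The difference of 0.75 therefore stands for the brighter Ets1 probe alone.

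**Figure D3:**
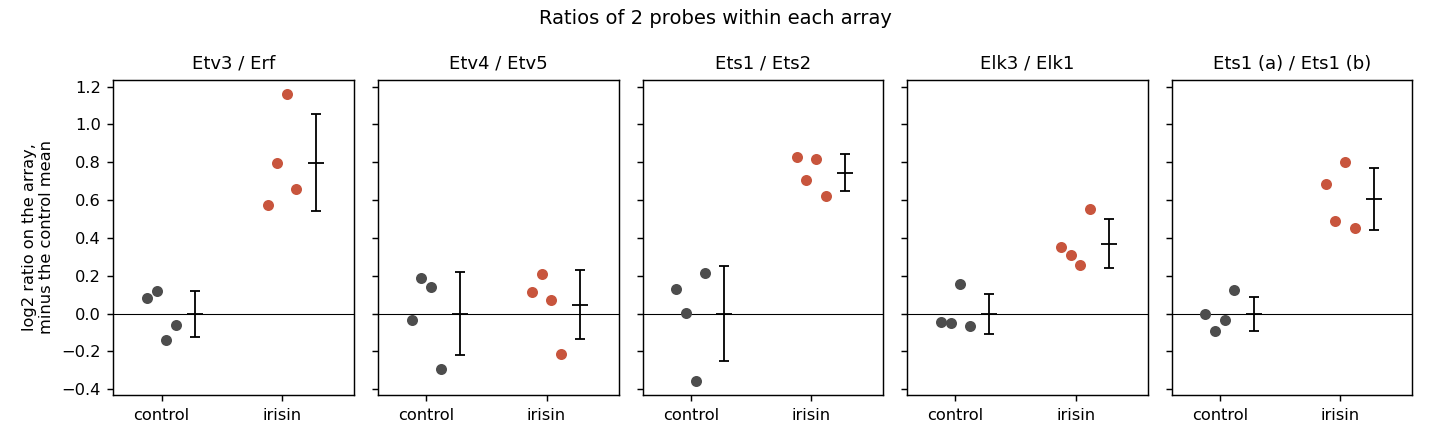
Log2 ratio of 2 probes measured on the same array, minus the mean of the control arrays (vertical axis), with 1 point for each array and the mean with its SD (n = 4 in each group). The groups are separate for Etv3 over Erf (0.80 on average), Ets1 over Ets2 (0.75) and Elk3 over Elk1 (0.37). They are also separate for the brighter over the dimmer Ets1 probe (0.61), and they overlap for Etv4 over Etv5. In ratios between genes, Ets1, Elk3 and Elk1 are each read on the brightest probe alone. Elk3 over Elk1 went to -0.0036 with quantile normalization.

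Etv4 and Etv5, activators that are typical products and effectors of FGF and ERK signaling, did not differ beyond array spread on the percentile scale. Etv4 read -2.58, -2.30, -2.26 and -2.81 on the control arrays and -2.60, -2.23, -2.68 and -2.69 on the irisin arrays, a log2 change of -0.062 with a 95% interval from -0.39 to 0.26 (adjusted p = 0.820 in limma). Etv5 read 1.09, 1.15, 1.23 and 1.12 on the control arrays and 0.93, 1.20, 0.88 and 1.16 on the irisin arrays, a log2 change of -0.11 with a 95% interval from -0.32 to 0.10 (adjusted p = 0.476 in limma). For both genes irisin replicate 2 was the highest of the irisin arrays. A change of 1.5-fold lay outside both intervals on this scale. With no scaling Etv4 was at 0.68 and Etv5 at 0.63, and each passed both thresholds as an increase. With spike-in scaling they were at 0.51 and 0.47 and did not pass.

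Elk1, a ternary complex factor that sits with serum response factor on the promoters of immediate early genes and is switched on by ERK, was lower with irisin on its bright probe, again except with spike-in scaling or no scaling (0.15 and 0.31). The log2 signal of A_55_P1954986 was 7.17, 7.01, 6.96 and 7.09 on the control arrays and 6.68, 6.76, 6.57 and 6.52 on the irisin arrays. The groups did not overlap, and the difference was larger than the spread within either of them. The mean went from 7.06 ± 0.0947 to 6.63 ± 0.106 (SD, n = 4 in each group), a log2 change of -0.43 with a standard error of 0.087 and an adjusted p of 0.00446 in limma, or 1.34-fold lower and so short of 1.5-fold. The probe was in the brightest decile, where the median change was -0.20 and 0 probes rose at both thresholds. With quantile normalization the change of Elk1 was -0.043 (adjusted p = 0.706 in limma) and with cyclic loess it was -0.18 (adjusted p = 0.137 in limma).

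The second Elk1 probe, A_66_P103818, was dim and read -5.15, -4.99, -4.77 and -5.27 on the control arrays and -5.05, -5.05, -4.96 and -5.30 on the irisin arrays. Its change was -0.045 with a 95% interval from -0.31 to 0.22 (adjusted p = 0.843 in limma), while probes of its brightness had a median change of -0.33. The ratio of the bright to the dim Elk1 probe overlapped between the groups, with a mean difference of -0.38.

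Elk3, also called Net, is a ternary complex factor that represses until it is phosphorylated, and 2 of its 3 probes showed no separation. A_55_P2018994 read 1.99, 1.82, 1.97 and 1.88 on the control arrays and 1.89, 1.92, 1.69 and 1.93 on the irisin arrays (log2 change -0.058, adjusted p = 0.705 in limma). A_55_P1972927 read 1.83, 1.83, 1.97 and 2.00 on the control arrays and 1.67, 1.94, 1.69 and 1.84 on the irisin arrays (log2 change -0.12, adjusted p = 0.397 in limma). On the dim last probe, A_55_P2018989, all irisin arrays were below all control arrays. It read -4.01, -3.85, -4.29 and -4.18 on the control arrays and -4.45, -4.49, -4.46 and -4.60 on the irisin arrays, a log2 change of -0.42 with a standard error of 0.10 and an adjusted p of 0.0129 in limma. Its signal decile had a median of -0.15, and its change was -0.20 with quantile normalization and -0.16 with cyclic loess, with adjusted p of 0.228 and 0.338 in limma. The ratio of Elk3 on its brightest probe to Elk1 on its bright probe was higher by 0.37 with irisin. This difference was -0.0036 with quantile normalization. For the dim Elk1 probe, which changed by -0.045, the ratio was not formed.

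Elf3, an epithelial ETS factor known for differentiation and for responses to inflammatory signals, read -2.32, -2.35, -2.27 and -2.51 on the control arrays and -2.21, -2.37, -2.51 and -2.20 on the irisin arrays. The lowest value was the same in both groups. The log2 change was 0.040 with a 95% interval from -0.18 to 0.26 (adjusted p = 0.824 in limma), so that 1.5-fold lay outside the interval.

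The direction of several of these differences depended on what the arrays were scaled to. The irisin arrays were brighter, and with scaling to 8 spike-in probes or with no scaling all tested probes had a median change of 0.50 and 0.66. Erf then changed by 0.24 and 0.40, and Elk1 on its bright probe by 0.15 and 0.31, which were increases. The 75th percentile, the spike-in probes and no scaling differ only by a constant on each array. A change relative to the median of all tested probes is therefore the same under these 3 by construction. For Erf this relative change was -0.26 with these 3. It lay between -0.29 and -0.25 with quantile normalization, cyclic loess or normexp followed by quantile normalization. The same relative change was 0.72 for the brighter Ets1 probe and 0.54 for Etv3 with the first 3, and between 0.64 and 0.66 and between 0.34 and 0.63 with the latter 3. For the bright Elk1 probe it was -0.35 with the first 3, but -0.052 with quantile normalization. With normexp and the 75th percentile, the relative changes were -0.069 for Erf, 0.86 for Ets1 and 0.17 for Etv3. With no filter on dim probes, where the median of all probes was -0.29, they were -0.045 for Erf, 0.93 for Ets1 and 0.75 for Etv3.

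**Figure D4:**
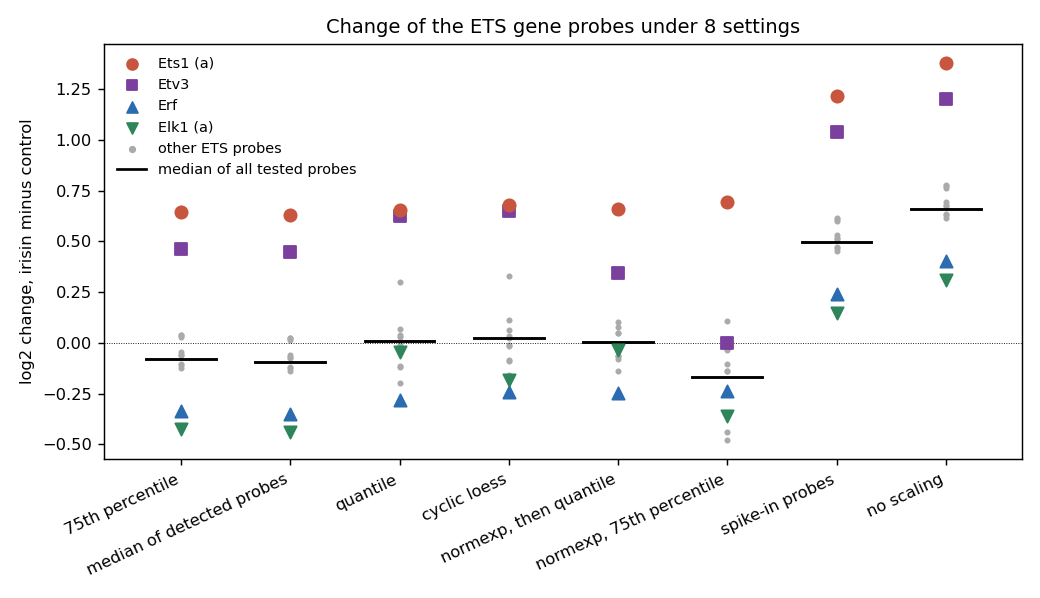
Log2 change (irisin minus control, vertical axis) of the 14 ETS probes under 8 settings of background correction and scaling, with the median of all tested probes as a black bar. Ets1 (a) lies highest under each of them, from 0.63 to 1.38, while Erf is below the bar under each but turns from -0.34 with the 75th percentile to 0.24 and 0.40 with spike-in scaling and no scaling, and Etv3 is at -0.0012 with normexp and the 75th percentile.

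Among the genes of the array, those whose array-to-array pattern was nearest to Erf were Atf4, Mrpl55, Sqle, Cd63 and Psmb5. Likeness was the root mean square difference, over 8 arrays, of log2 values after each gene's own mean over the arrays was subtracted. It was 0.030 for Atf4 and 0.040 for Psmb5, and these 5 genes changed by between -0.35 and -0.32. This measure includes the difference between the groups, so that genes chosen as nearest to Erf have changes near that of Erf. Among the other ETS genes Elk1 was nearest to Erf, at 0.10, and Etv3 and Ets1 were nearest to each other, at 0.19. Etv5 and Elk3 were nearest to each other at 0.089.

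Of 17 further ETS genes, 16 had a named probe and 10 had a tested one, the brightest probe standing for its gene. Of these 10, 0 rose and 4 fell in limma, with a median change of -0.19. Of all 14310 tested genes 0.531% rose and 10.1% fell, with a median change of -0.063. At an unadjusted p under 0.05, 1 of the 10 was higher and 4 were lower, against 6% and 23.5% of all tested genes. Elk4, the third ternary complex factor, fell by 1.03 on the log2 scale (adjusted p = 0.000720 in limma). Its 3 probes differed, with changes of -1.03, -0.88 and -0.12. On the brightest probe of each gene, Elk4 alone of these 4 passed with quantile normalization (-1.02), cyclic loess and normexp followed by quantile normalization (-0.73). This first Elk4 probe did not pass with spike-in scaling (-0.45) or no scaling (-0.29). The second Elk4 probe also fell, and passed with quantile normalization (-0.73) and cyclic loess (-0.70). It did not pass with normexp followed by quantile normalization. Fev (-0.89), Etv1 of the PEA3 group (-0.88) and Spdef (-0.80) also fell, on probes in the 2 dimmest deciles, where the median change was -0.51 and -0.33 and 45.0% and 34.1% of the probes fell. With quantile normalization these 3 lay between -0.49 and -0.39 and did not pass. Ehf (0.15), Elf1 (0.25), Elf2 (0.0031), Elf4 (-0.22), Gabpa (0.13) and Spib (-0.17) did not pass, while Elf5, Erg, Etv2, Fli1, Spi1 and Spic, many of them factors of blood and endothelium, had no tested probe.

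The kinases above the ETS factors and the genes below them were examined as lists. Of 13 genes of the ERK cascade, all tested, 0 rose and 1 fell in limma, with a median change of -0.052. The shares and median of all tested genes are those given above. At an unadjusted p under 0.05, 1 was higher and 1 lower, against 6% and 23.5% of all tested genes. The one that fell was Ksr1, a scaffold of RAF and MEK, at -0.87 (adjusted p = 0.000122 in limma) on a dim probe, and it was at -0.54 and did not pass with quantile normalization. Map2k1 (0.27), which encodes MEK1, did not pass. Of 15 partners of ETS factors 14 were tested, with a median change of -0.074, and 0 rose and 0 fell in limma, against 0.531% and 10.1% of all tested genes. At an unadjusted p under 0.05, 2 partners were higher and 2 lower, against 6% and 23.5% of all tested genes. Crebbp, an acetyltransferase that coactivates ETS factors, was at -0.36 (adjusted p = 0.0195 in limma). Ep300, of the same list, went the other way, at 0.40 (adjusted p = 0.0518 in limma), the largest increase among the partners. Sin3a, a corepressor scaffold, was at 0.23 (adjusted p = 0.0486 in limma), and Srf, the partner of the ternary complex factors, was at -0.18.

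Of 23 genes that ERK signaling is known to induce, 22 were tested, and 1 rose and 0 fell in limma, against 0.531% and 10.1% of all tested genes. Their median change was 0.024, against -0.063 for all tested genes. At an unadjusted p under 0.05, 3 were higher and 2 lower, against 6% and 23.5% of all tested genes. The one that rose was Myc, a growth regulator that Erf is known to repress, at 0.63. The study lists MYC, like Erf, as a regulator predicted to be inhibited, which concerns activity and not mRNA. On its irisin arrays Myc read between 3.098 and 3.16, against 2.45, 2.38, 2.45 and 2.65 on the control arrays. Of the feedback inhibitors of the cascade, Dusp6 (-0.17), Dusp4 (0.16), Spry1 (0.018) and Spred1 (0.083) did not pass, while Spry2 (-0.44) and Spry4 (-0.58) were lower by the adjusted p alone (0.0227 and 0.0156 in limma), both on dim probes. In the other direction, Dusp5, a phosphatase of the same cascade on a dim probe, was at 0.29 with no overlap (adjusted p = 0.0573 in limma), and Lif, a cytokine, was higher by the adjusted p alone (0.35, adjusted p = 0.0284 in limma). Of the immediate early genes, Egr1 was at -0.12, Fos at 0.12 and Junb at -0.17.

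Of 16 genes known as targets of ETS factors, 13 were tested, and 0 rose and 1 fell in limma, against 0.531% and 10.1% of all tested genes. Their median change was -0.045. At an unadjusted p under 0.05, 1 was higher and 3 were lower, against 6% and 23.5% of all tested genes. Nos2, the inducible nitric oxide synthase, fell by 0.70 (adjusted p = 0.00974 in limma), from values between -2.83 and -2.25 on the control arrays to values between -3.55 and -2.95 on the irisin arrays. It changed by -0.62 with quantile normalization, by -0.58 with cyclic loess, where it did not pass, and by 0.035 with no scaling. Ptgs2, the inducible cyclooxygenase, was well above background on 0 of 4 control and 4 of 4 irisin arrays, so that it entered the test through the irisin group, and it did not pass (adjusted p = 0.0777 in limma). Mmp14 (-0.31), Met (-0.31), Spp1 (0.35) and Icam1 (-0.045) did not pass.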

How the data were processed

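The authors labeled RNA of the 8 samples with Cy3, hybridized each to a one-color Agilent mouse array and extracted the scans in the scanner software (Feature Extraction 12.0.3.1), with background subtraction and a correction of trends across the slide. They deposited these signal intensity values on a linear scale, not normalized between arrays, and a value table that equals them within 0.000500%. The file headers name another array design than the paper's methods. Each probe was given the mean of its spots without those marked as outliers, and control spots were not used. For 87 values with only marked spots, the marked value was kept. Arrays were scaled to their 75th percentile and put on the log2 scale. Of the probes, 72.7% were named by matching accessions with RefSeq genes (GRCm38.p6). The number of arrays limits the precision, and no spot was saturated.

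Samples were grouped by the deposited labels. Irisin was compared with control in limma 3.58.1 (R 4.3.3, lmFit and eBayes) on the 24091 probes that every array of at least 1 group showed well above background, with Benjamini-Hochberg adjustment. A probe was called at 1.5-fold and an adjusted p under 0.05. An exact permutation test (two-sided, all 70 assignments) was added for single members. In lists, a gene was read from its brightest probe. The fit was tested on simulated data.

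The members, the lists of other ETS genes, ERK cascade, partners, ERK-induced genes, ETS targets and markers, written from general knowledge, and the naming rule were chosen with earlier results of these data known. The text names the 10 genes with every probe, called genes of each list, other ETS genes with a tested probe, and the 5 genes nearest to Erf. Other list genes were named after their values were seen. The alternatives were normexp background correction (offset 50), quantile normalization, cyclic loess, scaling to detected or spike-in probes, no scaling, the value table, other filters, marked spots kept, robust eBayes with an intensity trend, the methods' test, a replicate block, the adjusted p alone, and each array left out. Normexp used the raw spot signal, with local backgrounds over 3 times the array median (18 spots) set to that median. That step, and normexp followed by quantile normalization, were chosen after seeing the data.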

Additional observations from a re-analysis of the deposited data

Results flagged for a closer look

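Among 64 groups of 4 arrays examined for the ETS probes and the called genes of the lists, 3 had 1 array far from the other arrays of its group, and chance gives about 1 in 20 groups. For Etv6, control replicate 1 was at 2.01 on the log2 scale relative to the 75th percentile, while the other control arrays lay between 1.67 and 1.70. For the second probe of Elf1, control replicate 2 was at -3.37, while the others lay at -3.26 and -3.25. For Myc, irisin replicate 3 was at 3.16, while the other irisin arrays lay between 3.098 and 3.11.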

How the results depend on the processing

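The count of called ETS probes was 1 higher and 0 lower with the 75th percentile. The higher count was 2 with quantile normalization, 2 with cyclic loess, 5 with spike-in scaling and 11 without scaling. By the adjusted p alone it was 2 higher and 3 lower. With single arrays left out it lay between 0 and 1, with 0 without control replicate 3, and the lower count was 0 throughout. The 2 calls with quantile normalization and cyclic loess were Ets1 and Etv3.

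Spike-in scaling gave 7756 probes higher and 361 lower of all tested, no scaling 14916 and 162, quantile normalization 671 and 1016, cyclic loess 693 and 924, normexp followed by quantile normalization 52 and 66, and the adjusted p alone 721 and 5182. Normexp with the 75th percentile gave 54 higher, the methods' test 109 higher, and no filter on dim probes 12694 lower. With single arrays left out, between 104 (without irisin replicate 3) and 356 (without irisin replicate 2) were higher and between 2655 and 3080 lower.

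Of the other ETS genes, 3 were called higher with spike-in scaling and 4 without scaling, and the 4 lower calls became 1 with quantile normalization, cyclic loess and normexp followed by quantile normalization, and 0 under the spike-in and unscaled settings. With arrays left out they stayed at 0 higher and 4 lower. In the ERK cascade, 4 were higher with spike-in scaling and 12 without scaling, and the 1 lower call became 0 under both of these and under quantile normalization, cyclic loess and normexp followed by quantile normalization. With arrays left out, between 0 and 1 were higher (1 without irisin replicate 2) and 1 was lower. Of the partners, 4 were higher with spike-in scaling, 9 with no scaling and 1 by the adjusted p alone, which also gave 1 lower. With arrays left out both counts were 0. Of the ERK-induced genes, 2 were higher with quantile normalization, 2 with cyclic loess, 12 with spike-in scaling, 17 with no scaling and 2 by the adjusted p alone. The lower count was 1 with scaling to the median of detected probes and 2 by the adjusted p alone. With arrays left out, 1 was higher, and between 0 and 1 lower (1 without control replicate 1, control replicate 2 or irisin replicate 3). Of the ETS targets, 1 was higher with quantile normalization, 1 with cyclic loess, 5 with spike-in scaling and 8 without scaling. The 1 lower call became 0 with normexp followed by quantile normalization, cyclic loess, spike-in scaling, no scaling and the methods' test. With arrays left out, between 0 and 1 were higher (1 without irisin replicate 2) and 1 was lower.

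Reversed signs came mostly from scaling to the spike-in probes and from leaving the arrays unscaled. The log2 changes with these were 0.24 and 0.40 for Erf, 0.51 and 0.68 for Etv4, 0.47 and 0.63 for Etv5, 0.47 and 0.63 for Ets2, 0.15 and 0.31 for the bright and 0.53 and 0.69 for the dim Elk1 probe, and 0.52 and 0.68, 0.45 and 0.61, and 0.16 and 0.32 for the Elk3 probes in the order given above. With normexp, Etv3 was at -0.0012, Etv6 at -0.033, Elf3 at -0.10 and the second Elk3 probe at 0.020. With normexp followed by quantile normalization, Etv4 was at 0.051, Etv6 at -0.081 and the dim Elk1 probe at 0.079. Etv4 was at 0.025 with cyclic loess, and the dim Elk1 probe at 0.30 with quantile normalization and 0.33 with cyclic loess. With single arrays left out, the changes that changed sign were those of Etv4 (-0.17 to 0.014, above 0 without control replicate 2 at 0.0013 and control replicate 3), Etv6 (-0.076 without irisin replicate 2 and -0.0074 without control replicate 4, up to 0.12), the second Ets1 probe (-0.030 to 0.081), the dim Elk1 probe (-0.12 to 0.045, and 0.026 without irisin replicate 4) and Elf3 (-0.0094 to 0.10). None of the ETS probes in this list had passed both thresholds. The cause of these reversals was not tested, but spike-in scaling and no scaling move the median of all tested probes by 0.57 and 0.74 against the 75th percentile.

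The replicate block gave 171 probes higher and 2815 lower, and left the calls of the ETS probes at 1 and 0, with adjusted p of 0.0617 for Erf and 0.0361 for Etv3. The numbers are not taken as a pairing, since same-numbered arrays deviated together with correlations of 0.11, -0.33, -0.12 and 0.15 over probes. Each group being 1 slide and 1 scan, their part was not tested, and signal over background limits what dim probes can show.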
